A study of Homo sapiens with 4 samples.

Results

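The fibrillar collagen genes described here are the 8 genes COL1A1, COL1A2, COL3A1, COL5A1, COL5A2, COL5A3, COL11A1 and COL27A1, out of 31907 gene names with a count in at least 1 of 4 RNA sequencing libraries. They were picked by name, and the set was chosen from results of these data in which their counts in each library were already known. The count of each gene in each library, given per 1000000 counts of that library (CPM), was the measure behind the choice, so the differences between treatments in these genes are given as a description, with no test. All 8 were found in the count tables and all 8 passed edgeR's filter on low counts.

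The libraries came from HGC-27, a human gastric cancer cell line. PBS, the vehicle, was given to the cells of 2 libraries (replicates 1 and 2), and recombinant IL-17B (rIL-17B) at 200 ng/ml to those of the other 2, each for 48 h. IL-17B is a cytokine that acts through the receptor IL-17RB, and the contrast asked which transcripts change when it is added. RNA was copied from an oligo-dT primer by Smart-seq2 and amplified, and the reads counted on each gene were deposited. The labels' library protocol speaks of monocytes, whereas the cell line is given as HGC-27, and no label says whether the replicates were separate cultures, so their spread may be technical.

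Fibrillar collagens are the rope-like proteins of connective tissue. 3 chains wind into a triple helix inside the cell, the propeptides at their ends are cut off after secretion, and the trimmed molecules pack into fibrils that are crosslinked by lysyl oxidases. Type I collagen, the most common form, joins α1 chains from COL1A1 with an α2 chain from COL1A2. Type III collagen is made of the COL3A1 chain alone, and type V collagen joins chains of COL5A1, COL5A2 and, in some tissues, COL5A3 and helps to start fibrils and set their width. COL11A1 encodes a chain of the cartilage collagen type XI, and COL27A1 encodes type XXVII collagen, also known from cartilage. Fibroblasts and other mesenchymal cells are the main source of types I, III and V, and epithelial cells make little.

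1 library stood apart from the other 3 over all genes. Of 16361 genes that passed the filter, 104 differed at least 2-fold between the PBS libraries (0.5 CPM added to each value), and rIL-17B replicate 2 differed from the PBS libraries in 78 and 292 genes. rIL-17B replicate 1 differed from them in 3464 and 3609 genes. The library totals used were between 12888029 and 17555879 counts, with 14615341 in rIL-17B replicate 1, so that library was not the shallowest. It still had counts for the fewest gene names, 23033 against 26195 and 25632 with PBS and 26216 in rIL-17B replicate 2. Whether rIL-17B replicate 1 holds the same material as the other libraries cannot be told from the files. For this reason the rIL-17B libraries are described one by one (where a pair of values carries no number, replicate 1 comes first), and the comparisons fitted over all genes are given with and without replicate 1.

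In the PBS libraries COL1A1, COL1A2 and COL3A1 were among the most abundant transcripts. COL1A1 ranked 6 of all genes by CPM in both PBS libraries, COL1A2 ranked 8 in both and COL3A1 ranked 13 in both, whereas COL5A3 ranked 6835 and 6491 and COL27A1 5485 and 4592. Together the 8 genes took 1.92% and 1.89% of all counts with PBS. The rIL-17B libraries differed, with 0.165% in replicate 1 and 1.65% in replicate 2. The summed level averaged 19038 ± 217 CPM in the PBS group and 9078 ± 10503 CPM in the rIL-17B group (SD, n = 2 libraries in each), so the spread with rIL-17B was larger than its mean. The log2 ratio of the group means was -1.07, and without rIL-17B replicate 1 it was -0.21.

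**Figure D1:**
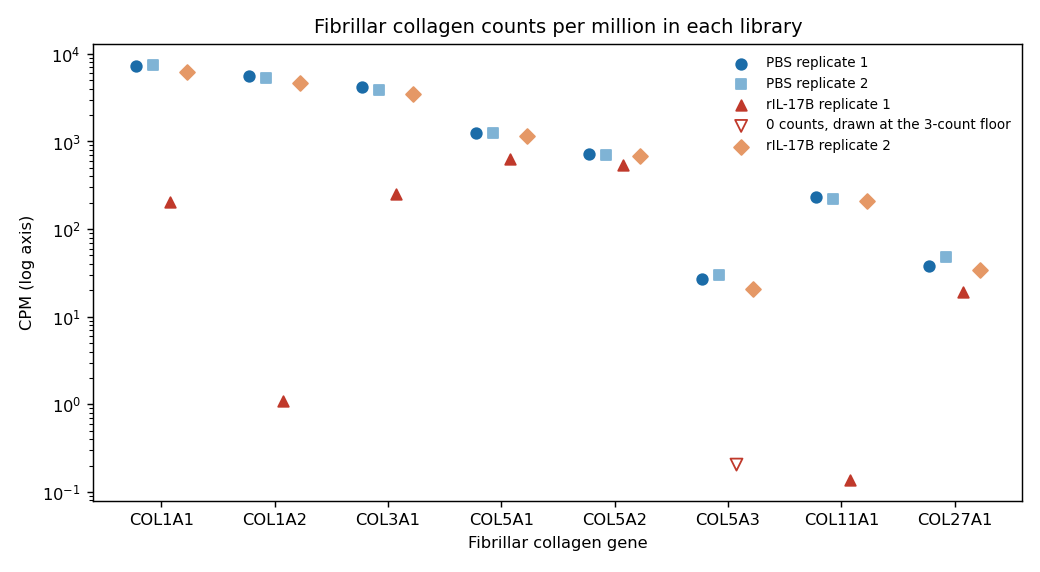
CPM of the 8 fibrillar collagen genes on a log axis, with 1 point per library and the open triangle for a count of 0 drawn at the 3-count floor of 0.205 CPM. The PBS libraries and rIL-17B replicate 2 lie close together for every gene, and rIL-17B replicate 1 lies below the PBS mean by 1.31-fold for COL5A2 and by 4916-fold for COL1A2.

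The type I chains together were 62.0-fold below the PBS mean in rIL-17B replicate 1. COL1A1 (ENSG00000108821.13, chr17:50183289-50201632 on GRCh38, minus strand) had 7264 and 7511 CPM with PBS, 205 CPM in replicate 1 of rIL-17B and 6192 CPM in rIL-17B replicate 2. Replicate 1 was thus 36.1-fold below the PBS mean, and replicate 2 was at 83.8% of it. COL1A2 (ENSG00000164692.17, chr7:94394561-94431232, plus strand) had 87731 and 67635 counts with PBS, 16 counts in replicate 1 of rIL-17B and 82503 counts in rIL-17B replicate 2. In CPM these were 5516, 5248, 1.09 and 4699. Replicate 1 was 4916-fold below the PBS mean, with an exact 95% Poisson interval of 3027 to 8601 that covers the counting error of the 16 counts only. The gene ranked 13274 in that library and 11 in replicate 2.

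The balance of the α1 and α2 chains of type I collagen therefore differed between the libraries. Per kb of exon, the ratio of COL1A1 to COL1A2 was 1.5 and 1.63 with PBS and 1.5 in rIL-17B replicate 2. In rIL-17B replicate 1 it was 213, with a counting interval of 131 to 372. These ratios are of transcript levels per exon length (9.82 kb for COL1A1 and 11.2 kb for COL1A2 in GENCODE 29), and read coverage along the transcripts was not known.

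**Figure D2:**
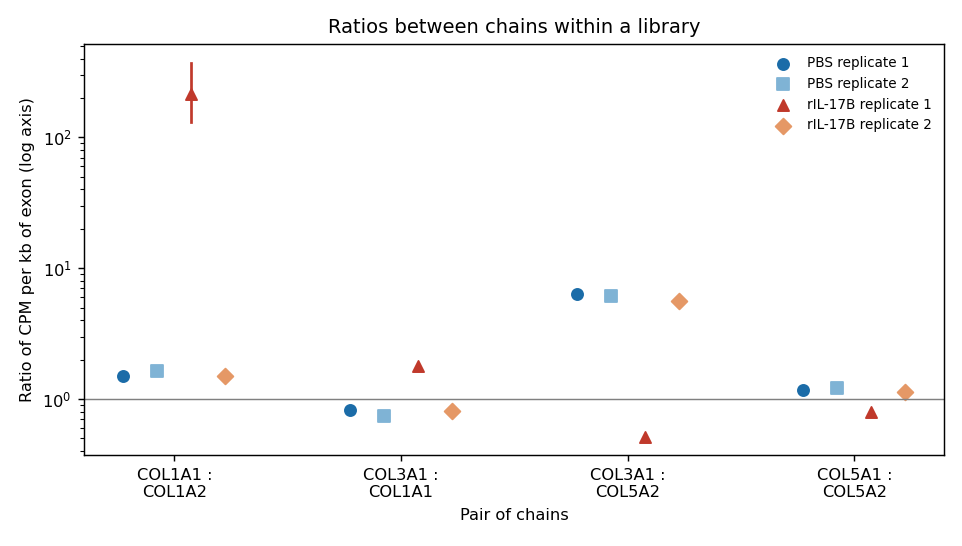
Ratio of CPM per kb of exon between pairs of chains within each library, on a log axis with a grey line at 1; the bar on the COL1A1 to COL1A2 point of rIL-17B replicate 1 is the 95% Poisson interval of the COL1A2 count. The ratio of COL1A1 to COL1A2 was 213 in that library and between 1.5 and 1.63 in the others.

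COL3A1, the single chain of type III collagen (ENSG00000168542.14, chr2:188974320-189012746, plus strand), lay less far below PBS in rIL-17B replicate 1 than the type I chains. It had 4145 and 3871 CPM with PBS, 252 CPM in replicate 1 of rIL-17B and 3494 CPM in rIL-17B replicate 2. Replicate 1 was 15.9-fold below the PBS mean and replicate 2 was at 87.2% of it. Its ratio to COL1A1 per kb was 0.823 and 0.743 with PBS, 0.814 in replicate 2 and 1.78 in replicate 1, where COL3A1 was the higher of the pair.

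The main type V chains were the nearest to their PBS level in rIL-17B replicate 1. COL5A1 (ENSG00000130635.15, chr9:134641774-134844843, plus strand) encodes the α1 chain that every type V molecule needs, and had 1254 and 1264 CPM with PBS, 639 CPM in replicate 1 of rIL-17B and 1169 CPM in rIL-17B replicate 2. It was 1.97-fold below the PBS mean in replicate 1. COL5A2 (ENSG00000204262.12, chr2:189031896-189225312, minus strand) encodes the α2 chain, and had 714 and 692 CPM with PBS, 535 CPM in replicate 1 of rIL-17B and 687 CPM in rIL-17B replicate 2. That is 76.1% of the PBS mean in replicate 1 and 97.8% in replicate 2, the smallest differences among the 8 genes in both libraries. COL5A1 to COL5A2 per kb was 1.17 and 1.22 with PBS, 0.795 in replicate 1 and 1.13 in replicate 2.

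COL5A2 and COL3A1 lie next to each other on chromosome 2, on opposite strands with their 3′ ends facing, 19.1 kb apart with 0 annotated genes between them. Their levels in rIL-17B replicate 1 parted all the same. COL3A1 was 6.36 and 6.12 times as high as COL5A2 per kb with PBS and 5.56 times as high in replicate 2, and in replicate 1 the ratio was 0.516.

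The third type V chain was not counted in rIL-17B replicate 1. COL5A3 (ENSG00000080573.6, chr19:9959561-10010471, minus strand), the least widely expressed chain of the type, had 434 and 389 counts with PBS, 0 counts in replicate 1 of rIL-17B and 362 counts in rIL-17B replicate 2. In CPM these were 27.3, 30.2, 0 and 20.6. Against a floor of 3 counts in that library, replicate 1 was at least 140-fold lower than the PBS mean. GENCODE 29 places an antisense gene, AC008742.1, over 270 exon bases of COL5A3, and the strand setting of the counting is not given in the sources used here.

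COL11A1 (ENSG00000060718.21, chr1:102876467-103108872, minus strand) was also at the detection limit in rIL-17B replicate 1. It had 3719 and 2833 counts with PBS, 2 counts in replicate 1 of rIL-17B and 3639 counts in rIL-17B replicate 2, which are 234, 219.8, 0.137 and 207 CPM. With 2 counts the ratio of the PBS mean to replicate 1 was 1658, and its counting interval ran from 459 to 13687. COL27A1 (ENSG00000196739.14, chr9:114155560-114312511, plus strand) was a low gene in every library, at 38 and 48.4 CPM with PBS, 19.1 CPM in replicate 1 of rIL-17B and 33.8 CPM in rIL-17B replicate 2. Its PBS libraries differed by 24.0% of their mean, the widest gap of the 8 genes, and replicate 1 was 2.26-fold below that mean.

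Promoter windows, 250 bases before to 50 after the RefSeq start site, were held for 4 of the 8 genes in the RefSeq table (GRCh38.p14), and all 4 are shown. Entries for COL1A1, COL1A2, COL3A1 and COL5A2 were missing. Capitals mark matches, on either strand, to CCAAT (the CCAAT box, read as ATTGG on the other strand) or to GGGCGG (the GC box, read as CCGCCC). The windows lie at chr19:10010455-10010754 (minus strand) for COL5A3, at chr1:103108473-103108772 (minus strand) for COL11A1, at chr9:134641553-134641852 (plus strand) for COL5A1 and at chr9:114155287-114155586 (plus strand) for COL27A1.
COL5A3: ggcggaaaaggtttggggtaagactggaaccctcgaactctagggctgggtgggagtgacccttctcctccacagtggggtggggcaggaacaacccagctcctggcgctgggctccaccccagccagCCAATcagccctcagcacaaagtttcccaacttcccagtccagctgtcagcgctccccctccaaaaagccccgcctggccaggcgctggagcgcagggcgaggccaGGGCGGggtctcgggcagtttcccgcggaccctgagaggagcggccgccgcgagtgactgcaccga
COL11A1: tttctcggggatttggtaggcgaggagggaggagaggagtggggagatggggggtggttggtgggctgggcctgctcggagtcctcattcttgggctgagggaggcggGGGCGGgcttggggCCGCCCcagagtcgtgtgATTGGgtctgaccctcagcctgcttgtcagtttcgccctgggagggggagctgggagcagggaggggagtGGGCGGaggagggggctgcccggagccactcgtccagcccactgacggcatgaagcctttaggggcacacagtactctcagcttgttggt
COL5A1: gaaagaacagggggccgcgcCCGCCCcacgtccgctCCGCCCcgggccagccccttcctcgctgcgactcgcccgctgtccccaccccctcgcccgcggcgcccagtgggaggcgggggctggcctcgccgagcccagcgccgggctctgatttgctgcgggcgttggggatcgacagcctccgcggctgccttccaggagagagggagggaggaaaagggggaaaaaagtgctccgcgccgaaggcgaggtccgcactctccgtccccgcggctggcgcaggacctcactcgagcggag
COL27A1: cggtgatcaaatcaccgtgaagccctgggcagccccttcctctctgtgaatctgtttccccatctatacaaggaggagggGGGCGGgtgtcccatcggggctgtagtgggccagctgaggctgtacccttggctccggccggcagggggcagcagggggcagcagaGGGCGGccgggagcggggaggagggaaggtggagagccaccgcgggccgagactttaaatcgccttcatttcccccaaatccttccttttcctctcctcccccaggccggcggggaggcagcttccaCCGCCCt

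The windows of COL5A3 and COL11A1 each held 1 CCAAT box, 122 and 110 bases before the RefSeq start site. The COL11A1 window lies wholly inside the GENCODE span given above for that gene. Its matches are therefore before the RefSeq start only, and not before the start of the gene in GENCODE. The windows of COL5A1 and COL27A1 held 0 CCAAT boxes. The RefSeq table has a further window for COL5A1, which starts 2 bases downstream and also held 0 CCAAT boxes and 2 GC boxes. The GC box occurred 1 time in COL5A3, 3 times in COL11A1, 2 times in COL5A1 and 3 times in COL27A1. TATAAA and CAGACA, letters known from TATA boxes and SMAD sites, occurred in 0 of the 4 windows. Of 27305 RefSeq promoters of the same length, 35.7% held CCAAT, 44.6% held GGGCGG, 12.0% held TATAAA and 16.8% held CAGACA. With 4 windows, and none for the other 4 genes, these matches are a description of the letters only. A link between the letters and the levels was not tested.

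Ordered by CPM per kb of exon, the PBS libraries ran from COL1A1 (752 ± 17.8) through COL3A1 (589 ± 28.5), COL1A2 (482 ± 17), COL5A1 (113 ± 0.579), COL5A2 (94.3 ± 2.01), COL11A1 (25.0 ± 1.09) and COL5A3 (4.26 ± 0.303) to COL27A1 (3.09 ± 0.525) (SD, n = 2 libraries). The ranges of neighbours in this order did not overlap, although COL3A1 and COL1A2 were 1.22-fold apart and COL5A1 and COL5A2 1.19-fold. rIL-17B replicate 2 had the same order. In rIL-17B replicate 1 COL5A2 (71.8 CPM per kb) came first, then COL5A1 (57.1), COL3A1 (37.1) and COL1A1 (20.9), with COL27A1 (1.36) above COL1A2 (0.0981), COL11A1 (0.0151) and COL5A3 (0).

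The make-up of the fibrillar collagen pool in that library differed from the other 3. Type I transcripts made up 66.6% and 67.6% of the fibrillar collagen counts with PBS and 66.0% in rIL-17B replicate 2, against 12.5% in rIL-17B replicate 1. Type V transcripts made up 10.4% and 10.5% with PBS, 11.4% in replicate 2 and 71.1% in replicate 1. The type III share differed less, at 21.6% and 20.5% with PBS, 21.2% in replicate 2 and 15.3% in replicate 1. These are shares of counts and not of molecules, since longer transcripts give more reads, and they sum to a whole in each library.

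**Figure D3:**
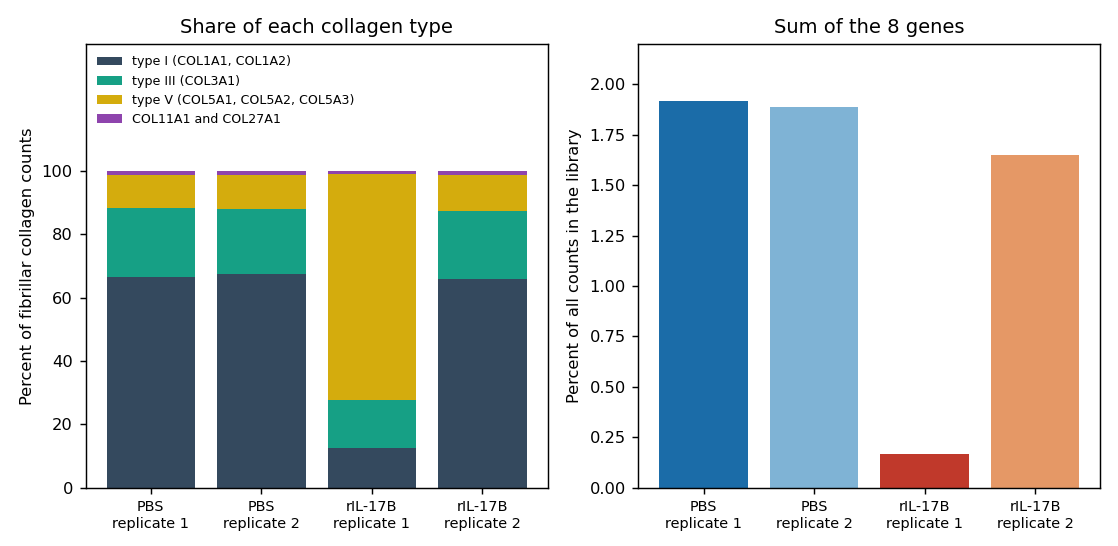
Left, the share of each collagen type in the summed counts of the 8 genes for each library; right, the sum of the 8 genes as a percent of all counts in the library. Type V transcripts are 10.4% and 10.5% with PBS and 71.1% in rIL-17B replicate 1, and the sum is 1.92% and 1.89% with PBS and 0.165% in that library.

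rIL-17B replicate 2 was also below both PBS libraries for each of the 8 genes, by much smaller steps. Its levels were between 71.8% (COL5A3) and 97.8% (COL5A2) of the PBS mean, against a range of 0 to 76.1% in replicate 1. For 5 genes the step from the lower PBS library to replicate 2 was larger than the gap between the PBS libraries. For COL1A1 the difference of replicate 2 to the lower PBS library was -14.7%, with PBS libraries 3.35% of their mean apart. For COL5A2 it was -0.71%, with PBS libraries 3.01% apart. For COL27A1 it was -11.1%, with PBS libraries 24.0% apart, and for COL11A1 it was -5.70%, with PBS libraries 6.18% apart. For these 3 genes the step was smaller than the gap between the PBS libraries.

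**Figure D4:**
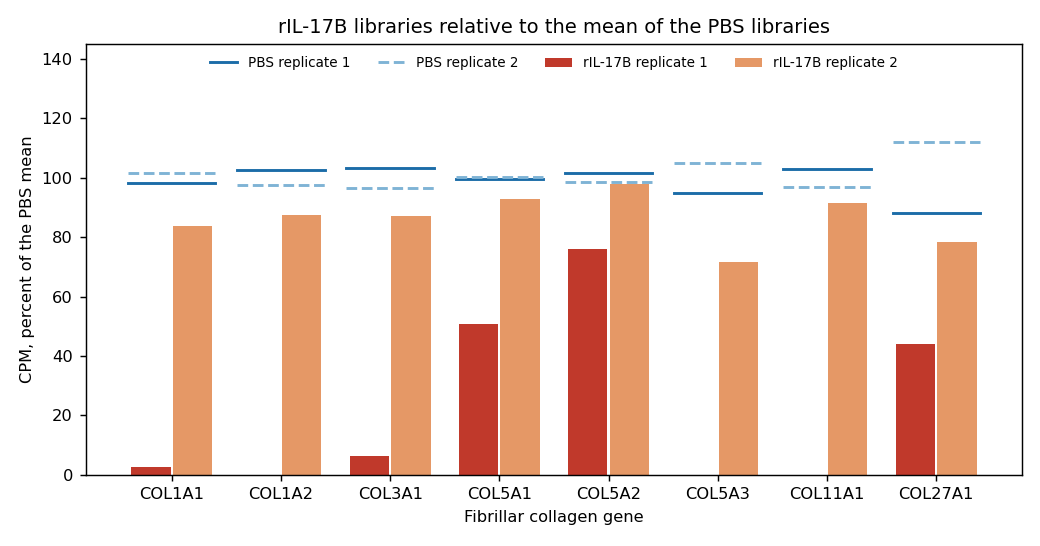
CPM of each gene in the rIL-17B libraries as a percent of the PBS mean (bars), with the PBS libraries as lines. All bars of rIL-17B replicate 2 lie below both PBS lines, between 71.8% and 97.8%, and those of rIL-17B replicate 1 lie between 0 and 76.1%.

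The same comparisons over all 16361 genes give the background for these counts, with 0.5 CPM added for each 2-fold limit. rIL-17B replicate 1 was at least 2-fold lower than both PBS libraries for 5 of the 8 genes (COL1A1, COL1A2, COL3A1, COL5A3 and COL11A1) and for 17.1% of all genes. The nearest gene inside this limit was COL3A1, and the nearest outside were COL27A1 and COL5A1. Under TMM scaling, which shifted the median log2 ratio of all genes in that library by -0.13, from 0.08 to -0.04, the count was 7 of the 8 genes and 18.3% of all genes. At least 2-fold higher were 0 of the 8 genes and 1.57% of all genes. rIL-17B replicate 2 was lower than both PBS libraries for 8 of 8 genes and 36.1% of all genes, and both rIL-17B libraries were lower than both PBS libraries for 8 of 8 and 27.5%. Because these values were known when the genes were chosen, nothing further is read from the counts.

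Of the 66 genes with at least 1000 CPM in both PBS libraries, 18 were at least 10-fold lower in rIL-17B replicate 1 than the PBS mean and 9 at least 100-fold lower. The fibrillar collagens held 4 places among the 66, and COL1A1, COL1A2 and COL3A1 were among the 18. The median log2 ratio to the PBS mean (0.5 CPM added) in replicate 1 was -4.58 over the 8 genes and 0.08 over all genes tested. In replicate 2 it was -0.20 and -0.00.

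Over all 16361 genes, the quasi-likelihood test of edgeR (Benjamini-Hochberg adjusted) called 0 genes, or 0%, between rIL-17B and PBS, and 226 had an unadjusted p under 0.05. DESeq2 also called 0, with 457 at an unadjusted p under 0.05. The log2 fold changes from edgeR for the 8 genes lay between -1.48 (COL5A3) and -0.26 (COL5A2), and between -0.48 and -0.04 for the same genes without rIL-17B replicate 1. Without that library, where the lone rIL-17B library is assumed to vary like the PBS libraries, COL1A1 and COL5A3 were among the genes edgeR called lower, which were 2.3% of the 17103 genes tested. Nothing is read from these calls, since the contrast was used to choose the genes.

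The remaining fibrillar collagen genes were low in every library. COL11A2, another type XI chain, had 6.04 and 8.07 CPM with PBS, 5.47 CPM in replicate 1 of rIL-17B and 4.96 CPM in rIL-17B replicate 2. COL24A1, a relative of COL27A1, had 2.45 and 2.56 CPM with PBS, 0.547 CPM in replicate 1 and 1.99 CPM in replicate 2. COL2A1, the cartilage collagen, had 4 and 2 counts with PBS, against 9 and 7 counts in the rIL-17B libraries, and did not pass the filter. Of the 33 collagen genes outside the fibrillar class that had a count, 25 were tested. Of these, 16, some of them also counted under fibril assembly, were at least 2-fold lower in rIL-17B replicate 1 than in both PBS libraries. 1 was at least 2-fold higher, where all genes gave 17.1% lower and 1.57% higher. It was COL4A3 of the basement membrane, named after its values were seen, with 43.2 and 42.4 CPM with PBS, against 92.9 and 50.2 CPM in the rIL-17B libraries.

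The genes that build, bind and degrade collagen fibrils were taken from 8 lists, which include the 3 other fibrillar genes. Of their 91 genes, 87 were tested, and edgeR's quasi-likelihood test called 0 higher and 0 lower in each list (smallest adjusted p = 0.661, and 0 genes with an unadjusted p under 0.05). Without rIL-17B replicate 1, with the lone rIL-17B library assumed to vary like the PBS libraries, it called 10 of 89 lower and 0 higher, where all genes gave 2.3% and 0.643%. These, named after their values were seen, were ADAMTS3, FN1, SPARC, TNXB, COL6A1, COL6A2, MMP14, CTGF, SOX5 and SOX9. Of these, FN1 had a log2 fold change of -0.26 and SOX9, a transcription factor of cartilage, -0.61. SOX9 had 44.7 and 62.5 CPM with PBS and 35.0 CPM in rIL-17B replicate 2. Its PBS libraries lay farther apart than the step from the lower of them to replicate 2, which was not so for FN1. In rIL-17B replicate 1, 46 of the 87 were at least 2-fold lower than both PBS libraries and 0 were at least 2-fold higher, where all genes gave 17.1% and 1.57%. In replicate 2, 57 of them were lower than both PBS libraries, where all genes gave 36.1%.

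The enzymes and chaperones that hydroxylate and fold procollagen in the endoplasmic reticulum had the lowest share of genes at least 2-fold lower in that library among the 8 lists. Of 19 tested, 4 were at least 2-fold lower in rIL-17B replicate 1, namely P3H3, PLOD2, COLGALT2 and FKBP10. For this list and those that follow, the share over all genes was 17.1%. SERPINH1, the collagen chaperone HSP47, had 788 ± 3.33 CPM with PBS (SD, n = 2 libraries) and 394 and 731 CPM in the rIL-17B libraries. SERPINH1 and P4HA1 were 2.00-fold and 2.19-fold below the PBS mean in replicate 1 but just missed the limit against the lower PBS library. The count of 4 for this list thus depends on genes near the limit. P4HB, the β subunit of prolyl 4-hydroxylase, had 704 ± 2.23 CPM with PBS (SD, n = 2 libraries) and 619 and 680 CPM with rIL-17B.

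Among the genes that trim procollagen, 3 of 7 tested were at least 2-fold lower in replicate 1, and these were ADAMTS2, ADAMTS3 and ADAMTS14, the enzymes that remove the N-propeptide. ADAMTS2 had 4784 and 3742 counts with PBS, 3 counts in replicate 1 of rIL-17B and 4363 counts in rIL-17B replicate 2. PCOLCE, the enhancer of C-propeptide removal, had 219 ± 0.397 CPM with PBS (SD, n = 2 libraries) and 149 and 204 CPM with rIL-17B. The lysyl oxidases LOX, LOXL1, LOXL2, LOXL3 and LOXL4, which crosslink collagen, were each at least 2-fold lower in replicate 1 (5 of 5). LOX had 402 and 344 CPM with PBS, against 28.5 and 327 CPM in the rIL-17B libraries, and LOXL2 had 307 and 307 CPM with PBS, against 71.9 and 262 CPM in the rIL-17B libraries.

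Of the genes for proteins that help to assemble fibrils or sit on their surface, 14 of 17 tested were at least 2-fold lower in replicate 1. FN1, whose fibronectin network guides collagen deposition, had 33131 and 32458 CPM with PBS, against 149 and 27450 CPM in the rIL-17B libraries. SPARC, a collagen-binding secreted protein, had 3780 and 3801 CPM with PBS, against 195 and 3185 CPM in the rIL-17B libraries. Of the collagen receptor genes 6 of 8 were at least 2-fold lower in replicate 1. In replicate 2, 8 of 8 were lower than in both PBS libraries, where all genes gave 36.1%. By that same rule it was 15 of 17 for fibril assembly, 9 of 19 for hydroxylation and folding and 9 of 22 for the regulators. ITGB1, the β1 integrin subunit, had 1425 and 1341 CPM with PBS, against 583 and 1279 CPM in the rIL-17B libraries, and MRC2, an endocytic collagen receptor, had 507 and 496 CPM with PBS, against 159 and 439 CPM in the rIL-17B libraries.

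Of the collagenases and related proteases, 6 of 7 were at least 2-fold lower in replicate 1. MMP2 had 1473 and 1378 CPM with PBS, against 89.2 and 1235 CPM in the rIL-17B libraries. MMP14, a membrane-bound collagenase, had 9699 and 8253 counts with PBS, against 8 and 8826 counts in the rIL-17B libraries. Of 22 genes for regulators of collagen transcription, 7 were at least 2-fold lower in replicate 1, and the median log2 ratio of the list was -0.33. CTGF (now named CCN2), a matrix protein induced by TGF-β, had 802 and 776 CPM with PBS, against 69.9 and 650 CPM in the rIL-17B libraries. TGFBR2, a TGF-β receptor, had 204 and 205 CPM with PBS, against 73.7 and 191 CPM in the rIL-17B libraries.

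**Figure D5:**
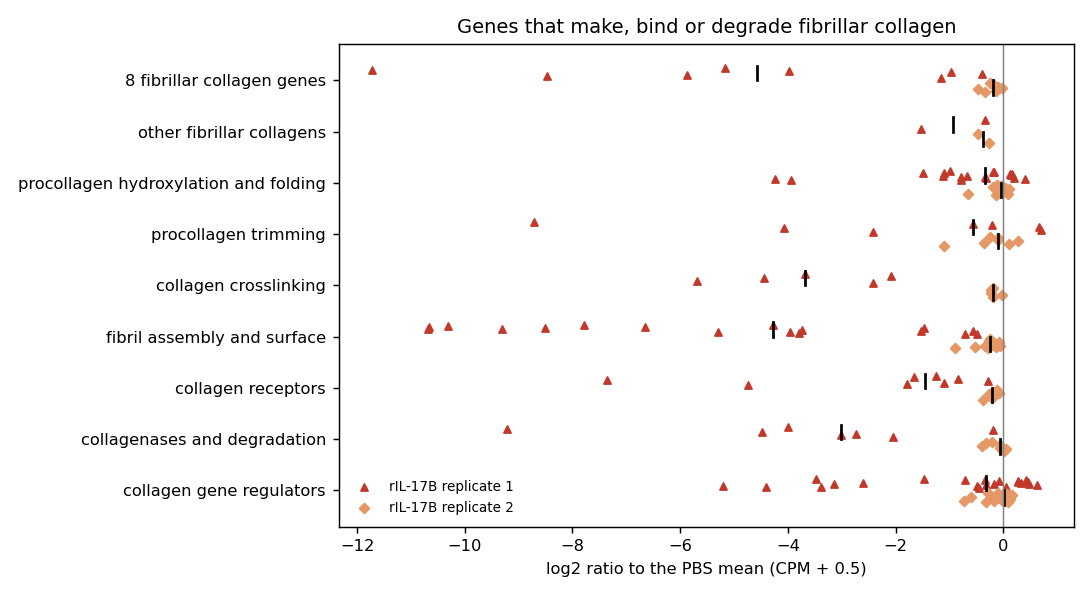
log2 ratio of each rIL-17B library to the PBS mean (0.5 CPM added) for the 8 fibrillar collagen genes and for the tested genes of the 8 partner lists, with 1 point per gene and a black line at each median. In rIL-17B replicate 1 the median is -4.58 for the fibrillar collagens, -4.28 for fibril assembly and -0.35 for hydroxylation and folding, and in replicate 2 the 8 collagen genes lie between -0.47 and -0.03.

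Markers of other cell types also differed in the library where the collagens were low. All 8 fibroblast and mesenchymal markers (PDGFRA, PDGFRB, THY1, DCN, LUM, FAP, PDPN and VIM, of which DCN and LUM are also in the fibril assembly list) were at least 2-fold lower in rIL-17B replicate 1, with a summed level between 2596 and 2744 CPM with PBS, against 375 and 2298 CPM in the rIL-17B libraries. PDPN had 0 counts and PDGFRA 1 count in replicate 1. Over all genes, 17.1% were at least 2-fold lower in that library than in both PBS libraries and 1.57% at least 2-fold higher. The summed level of 9 epithelial markers was between 805 and 815 CPM with PBS, against 1859 and 1032 CPM in the rIL-17B libraries, most of it from KRT8 and KRT18. Of 6 tested, 2 (KRT8 and KRT18) were at least 2-fold higher in replicate 1 and 1 (KRT19) at least 2-fold lower. MUC1 had 20.8 and 23.4 CPM with PBS, against 34.2 and 25.1 CPM in the rIL-17B libraries. EPCAM had 3.40 and 3.03 CPM with PBS, against 5.34 and 3.87 CPM, and CLDN4 6.73 and 8.38 CPM, against 6.64 and 5.92 CPM. KRT19, another keratin, had 47 and 43 counts with PBS, against 1 and 58 counts in the rIL-17B libraries, while CDH1, which defines epithelial junctions, had between 7 and 11 counts per library and TFF1, a gastric marker, had 0. The 5 endothelial markers summed to between 27.5 and 35.5 CPM with PBS and to 1.09 and 22.6 CPM with rIL-17B. The 9 blood cell markers summed to between 8.62 and 10.5 CPM in all 4 libraries, but CSF1R, a macrophage growth factor receptor, had 3.90 and 5.59 CPM with PBS, against 8.14 and 6.15 CPM in the rIL-17B libraries. The other 8 blood cell markers summed to 6.16 and 4.73 CPM with PBS, against 0.479 and 4.39 CPM in the rIL-17B libraries, with PTPRC, which defines blood cells, at 0 in replicate 1. Of 4 tested, 3 (PTPRC, CD14 and ITGAM) were at least 2-fold lower in that library. The 8 glial and neural markers summed to 112 and 166 CPM with PBS and to 30.6 and 83.6 CPM with rIL-17B, with OLIG1 and OLIG2 at 0 in replicate 1. Of these, MBP, a myelin protein, had 19.2 and 17 CPM with PBS, against 29.4 and 20.5 CPM in the rIL-17B libraries, and the other 7 summed to 92.7 and 149 CPM with PBS, against 1.23 and 63.1 CPM in the rIL-17B libraries. The cultures are labelled as a single cell line, and whether cells of these other types were present was not tested. In RNA from whole cultures fewer cells of a type, less RNA per cell and other material in a library cannot be told apart. The part of any of these in the collagen levels was not tested.

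The genes whose profile over the 4 libraries was most like the mean profile of the 8 collagens were ANKRD1, AK5, FERMT3, LSP1 and GFI1B, among 9981 genes with a mean of at least 10 CPM. Likeness was measured as the root mean square difference of centred log2(CPM + 0.5) values, which was 0.0122 for ANKRD1 and 0.0421 for GFI1B, the fifth. ANKRD1, a muscle and stress-induced nuclear protein, had 512 and 423 counts with PBS, against 11 and 500 counts in the rIL-17B libraries. FERMT3 had 27 counts in rIL-17B replicate 1. AK5, LSP1 and GFI1B had 2, 2 and 3 counts there, at or below the 3-count floor, so the added 0.5 CPM made up most of their value in that library. The difference to the mean profile was 0.191 for COL1A1, the nearest of the 8 collagen genes themselves, and 3.04 for COL1A2, the farthest. With 4 libraries the likeness rests mostly on how low a gene was in rIL-17B replicate 1.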

How the data were processed

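RNA from 2 PBS and 2 rIL-17B libraries of HGC-27 cells was sequenced, and groups were taken from the sample titles. The authors deposited counts of reads per gene name, 1 table per library, without normalization and without genes at 0. The submitters' processing notes name HISAT2 2.1.0, Bowtie2 2.2.3, TopHat2, HTSeq 0.6.0 and hg38, without roles. The annotation and strand setting are not given in the sources used here.

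Repeated names (83 to 98 per library, identical counts) were kept once, and 22 to 25 names made only of digits, with 0.228% to 0.244% of the counts, were left out. Absent genes were given 0. CPM was the count divided by the library total. A floor of 3 counts was between 0.171 and 0.233 CPM. Floors and Poisson intervals cover counting error only, since PCR copies were counted.

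All genes were fitted with edgeR 4.0.16 in R 4.3.3 (TMM, filterByExpr, quasi-likelihood F test, Benjamini-Hochberg threshold 0.05), after a test on simulated counts. The simulated counts had the spread of the PBS libraries in both groups, so that test does not cover the wider spread between the rIL-17B libraries. Alternatives were DESeq2 1.42.0, upper-quartile scaling, other filters, the replicate block and leaving out each library. The 8 genes, the gene lists and the tests were chosen with earlier results of these data known. Genes named beside the 8 were the other 3 fibrillar collagens, the 2 highest PBS means of each list and the 5 nearest profiles, and all others named were chosen after their values were seen. CCN2 and MRTFA were matched as CTGF and MKL1, their RefSeq synonyms. Exon lengths and coordinates came from GENCODE 29 on GRCh38, the build the notes name, and promoters from RefSeq. Protein sequences were not used here.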

Additional observations from a re-analysis of the deposited data

How the results depend on the processing

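DESeq2, upper-quartile scaling, an adjusted p under 0.1, a minimum of 10 counts per library, a fit without the filter and the replicate block (0 genes) each left the number of genes called at 0. Leaving out 1 library gave between 0 and 9489 genes: 0 without either PBS library, 504 without rIL-17B replicate 1 and 9489 without rIL-17B replicate 2, the last 2 fits resting on a lone rIL-17B library assumed to vary like PBS. The summed log2 ratio of the 8 collagen genes was -1.08 with TMM, -1.07 with totals as deposited and -0.99 without COL1A1, and lay between -3.53 and -0.21 when a library was left out. With a 4-fold limit, 1502 of the 16361 genes tested were lower in rIL-17B replicate 1 in place of 2805. The fibrillar collagens stayed at 5 of 8. Without the filter, 6823 of 31907 gene names were lower in both rIL-17B libraries, in place of 4494 of the 16361 genes tested. The larger number is thus out of a larger set, and 8 of 8 collagens were lower in each case.

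The log2 fold changes of the 8 genes ranged from -1.48 to -0.26 with all libraries, from -6.12 to -0.28 with the replicate block, from -0.48 to -0.04 without rIL-17B replicate 1 and from -12.39 to -0.53 without rIL-17B replicate 2. The same-numbered libraries deviated with a correlation of 0.08 across genes. COL5A3 and COL11A1 gave no value where at least 10 counts were required in every library. Depth limits the values of these 2 genes and of COL1A2 in rIL-17B replicate 1, which rest on 0, 2 and 16 counts. Leaving out 1 library, an alternative chosen after seeing the data for the counts that follow, gave between 0 and 75 partner genes past the threshold (0 without either PBS library, 10 without rIL-17B replicate 1 and 75 without rIL-17B replicate 2), between 2979 and 3088 genes at least 2-fold lower in rIL-17B replicate 1 and between 5749 and 6669 lower with rIL-17B in every library kept.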
